A study of Cervus nippon with 40 samples.

Results

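The microRNA miR-140, listed under the cattle name bta-miR-140, was followed in small RNA libraries of 10 organs of the Sika Deer at 4 stages of life. Of the 500 names listed over the 40 libraries, 1 matched bta-miR-140, and no second arm of the hairpin was listed under that name. It was chosen by its stage values in these same libraries, namely a lower level in adult than in juvenile deer in all 10 organs. Its stage differences are therefore described here with no test. Its differences between organs were not used in the choice and were tested. The organ tests hold stage as a term, which takes up a fall shared by the organs. The spread behind their p-values is thus not free of the choice. All deer were males of the Shuangyang breed, untreated as far as the sources say. The stages were juvenile (1 year old), adolescence (3 years), adult (5 years) and aged (10 years), with 3 deer at each stage and 12 in all. Besides the antler, the organs were heart and skeletal muscle, brain and adrenal, lung and spleen, kidney and liver, and the testes, and RNA of the 3 deer of a stage was pooled into 1 library per organ. The libraries held 41866 to 7759033 miRNA reads, with a median of 744715. The spread between animals was therefore not measured, and p-values between organs rest on the spread over 4 stages that used the same deer in every organ.

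MiR-140 lies within an intron of WWP2, a gene for a ubiquitin ligase, and is best known from cartilage, where chondrocytes make it under the control of SOX9, the transcription factor of the cartilage lineage. In mice its loss leads to short bones and early breakdown of joint cartilage, and ADAMTS5, a protease that degrades the cartilage matrix, is among its known targets. The antler is the bony head appendage of male deer, which is cast and regrown each year through a cartilage template at its tip. The sources do not say which zone of the antler was taken or how far it had grown. In whole tissue, fewer cells that make a miRNA and less of it in each cell cannot be told apart.

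MiR-140 was a scarce miRNA in this collection. It was read 2011 times in all, which was 0.00383% of the miRNA reads, and it was found in 40 of 40 libraries. A library held between 1 and 212 of these reads, with a median of 35. In RPM, the reads of a miRNA per 1000000 miRNA reads of its library, its level ran from 1.54 in adult skeletal muscle to 691 in adolescence antler. Some names repeat the reads of another name and count in these totals, as described with the processing. Among the 124 miRNAs tested, which were those reaching 10 reads or more in 4 or more libraries, its rank from the top lay between 34 and 90, with a median of 69. The 3 libraries with under 10 reads of it were the testes of adolescence, adult and aged deer, with 3, 1 and 1 reads. Counting intervals given here are exact, at 95%, and cover counting error only.

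The antler held the highest level. It was at 536 RPM in juvenile, 691 in adolescence, 68.2 in adult and 123 in aged deer, from 115, 148, 46 and 89 reads. Both younger libraries lay above every other library in the collection, and the adult and aged libraries lay within the range of the other organs. The counting intervals of the younger libraries were 442 to 643 and 584 to 812 RPM, and those of the older ones were 49.9 to 91.0 and 99.0 to 152 RPM, so that the younger and the older antlers were separated by far more than counting error. The rank of miR-140 among the 124 miRNAs, which needs no scaling between libraries, was 35 and 34 in the younger antlers and 49 in both older ones.

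The adrenal came next, at 338, 171, 115 and 144 RPM in juvenile, adolescence, adult and aged deer. Its juvenile library was the highest outside the antler, and in RPM adult and aged adrenal lay above adult antler. The kidney held 219, 183, 88.0 and 74.7 RPM in the same order, and these were lower at each later stage. The liver held 160, 81.8, 89.7 and 61.5 RPM, with the juvenile library apart from the rest.

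In spleen the levels were 84.7, 77.5, 33.1 and 28.7 RPM, a younger and an older pair that did not overlap. The lung held 67.9, 27.7, 19.5 and 15.4 RPM, lower at each later stage. The brain held 49.1, 43.4, 58.8 and 38.0 RPM, the most even organ on this scale with a ratio of 1.55 between its highest and lowest library, and its highest was the adult one.

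In testes the levels were 112, 44.6, 10.3 and 23.9 RPM. Only the juvenile value, from 60 reads, was well counted, and the other libraries had intervals of 9.20 to 130, 0.261 to 57.4 and 0.605 to 133 RPM. The heart held 4.65, 4.30, 9.86 and 14.4 RPM, with the older libraries above the younger ones on this scale. Skeletal muscle held 3.09, 3.30, 1.54 and 2.99 RPM, all below every heart library.

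The low RPM of skeletal muscle and heart stood beside miR-1, the miRNA of striated muscle, which took 91.1 to 92.9% of the miRNA reads in muscle libraries and 15.1 to 81.5% in heart libraries. A share of all reads falls when 1 miRNA fills the library. Levels were therefore also scaled by the trimmed mean of M values (TMM), which aims to set the bulk of the miRNAs equal between libraries. It did not do so fully in all organs, as the stage medians given below show. On that scale skeletal muscle was at 51.2, 76.5, 26.7 and 38.9 scaled RPM, near the brain at 57.4, 59.5, 36.6 and 36.9. Heart was at 11.4, 15.7, 11.2 and 14.2 scaled RPM, and the antler at 418, 531, 83.6 and 133. The rank of miR-140 in skeletal muscle was between 66 and 71, within the 63 to 77 of the brain, while in heart it was between 78 and 85.

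**Figure D1:**
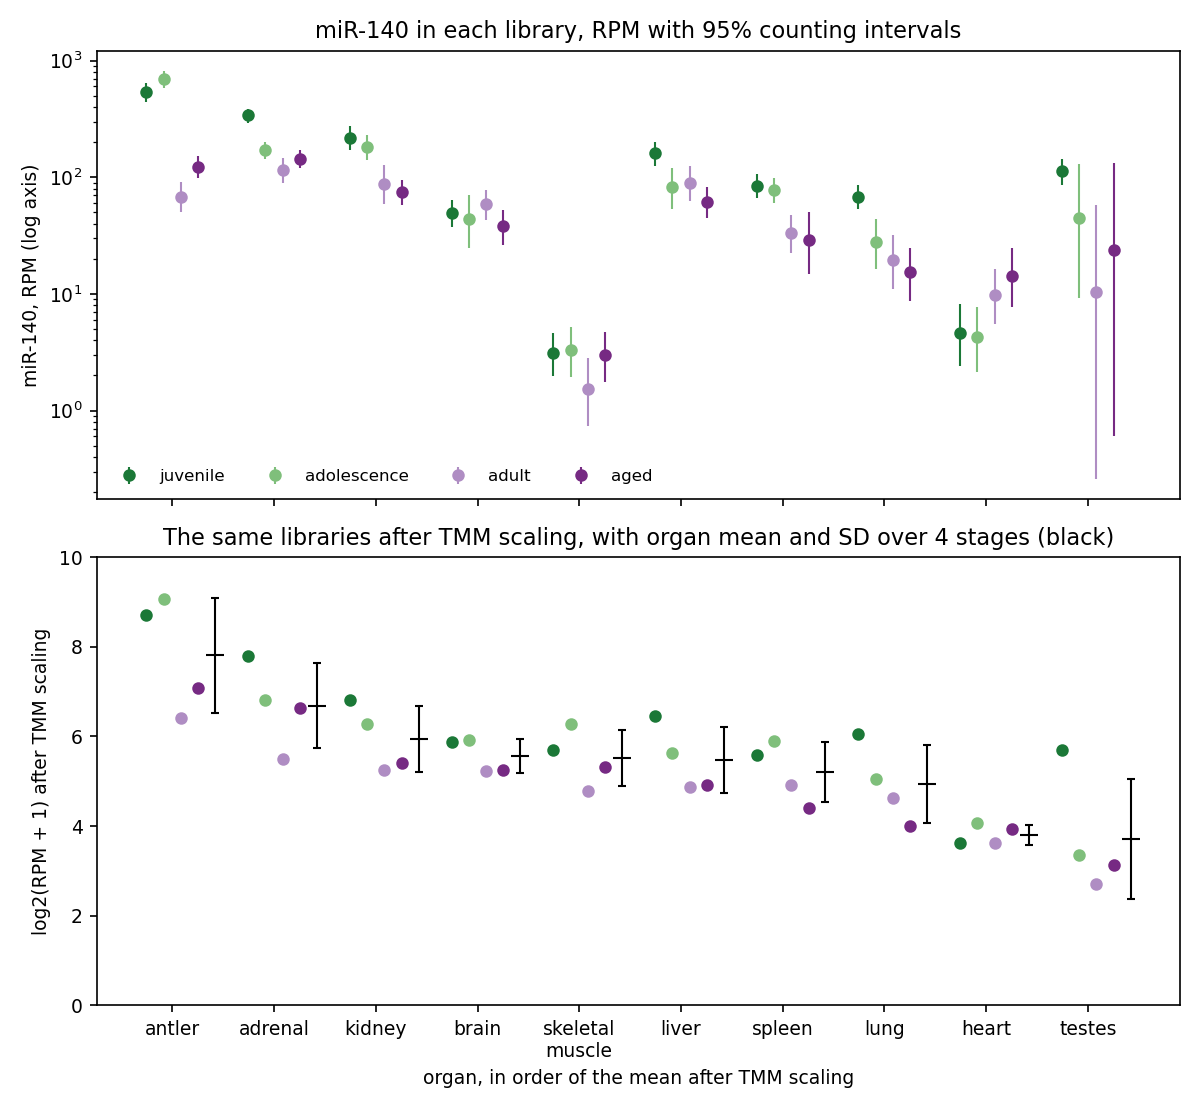
The upper panel plots miR-140 in RPM on a log axis for each of the 40 libraries, grouped by organ and coloured by stage, with 95% counting intervals, and the lower panel plots the same libraries as log2(RPM + 1) after TMM scaling, with the mean and SD over 4 stages of each organ in black. Both younger antler libraries are the highest points in either panel, and skeletal muscle moves from the lowest place in RPM to the middle after TMM scaling.

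The question put to the organs was whether miR-140 stood apart in any of them. Each organ was compared with the mean of the other 9 by limma on log2(RPM + 1) after TMM, with organ and stage in the fit, and called at a Benjamini-Hochberg adjusted p under 0.01 and a log2 difference beyond 1. Antler was higher by 2.61 on the log2 scale (SE 0.35, limma adjusted p = 1.49e-07), with a mean level of 7.81 ± 1.28 (SD, n = 4 stages). The antler contrast called 36.3% of the 124 miRNAs in either direction and 14.5% as higher. Taking the younger or the older stages alone, an alternative chosen after seeing the data, the antler difference was 3.22 (limma adjusted p = 0.000232) for juvenile and adolescence and 1.77 (limma adjusted p = 0.00367) for adult and aged. These differences are from the mean of the other organs, and the order of single libraries at the older stages depended on the scale. In RPM adult antler lay below adult adrenal, liver and kidney, and aged antler below aged adrenal. After TMM, the scale of the test, antler was the highest organ at both stages. It was at 83.6 scaled RPM against 44.0 for adrenal in adult deer, and at 133 against 98.6 in aged deer.

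Adrenal was higher than the mean of the other organs by 1.36 (SE 0.35, limma adjusted p = 0.00371), in a contrast that called 17.7% of the miRNAs. This call was held in 12 of 24 alternatives and was lost, for one, when the juvenile, the adolescence or the adult libraries were left out (limma adjusted p = 0.0298, 0.0101 and 0.0131) or when stage was not in the fit (limma adjusted p = 0.0353). Heart was lower by -1.84 on the log2 scale (limma adjusted p = 5.81e-05), where 30.6% of the miRNAs were called. The heart difference was -0.67 with adult and aged libraries alone and did not pass the test there. Testes was lower by -1.94 (limma adjusted p = 5.20e-05), where 20.2% were called. In RPM, with no further scaling, the testes difference was -0.43 (limma adjusted p = 0.424), and 3 of its 4 libraries rest on 3 reads or fewer.

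The other 6 organs were not called for miR-140. Their log2 differences were 0.52 in kidney, 0.11 in brain, 0.06 in skeletal muscle, 0.00 in liver, -0.29 in spleen and -0.59 in lung, where the contrasts called 16.9%, 40.3%, 33.9%, 21.8%, 5.65% and 12.9% of the miRNAs. Brain and skeletal muscle, with a large share of all miRNAs called, were thus among the organs nearest to 0 for miR-140. Skeletal muscle depended on the scale: in RPM its difference was -4.04 (limma adjusted p = 1.37e-10), while the median over all 124 miRNAs in muscle was -3.61 on that scale and -0.31 after TMM. Kidney was called in RPM, at 1.67 (limma adjusted p = 0.00161), where the median of all miRNAs was 1.08.

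The order of the organ means after TMM was antler, adrenal, kidney, brain, skeletal muscle, liver, spleen, lung, heart and testes. None of the 9 pairs of neighbours in this order was called by limma, with adjustment over all miRNAs and 45 organ pairs. The widest steps between neighbours were antler over adrenal, at 1.12 (SE 0.47, limma adjusted p = 0.0637), and lung over heart, at 1.13 (limma adjusted p = 0.0627). Both steps passed an unadjusted p of 0.05, at 0.0227 and 0.0223, and the other 7 did not. Thus the order among kidney, brain, skeletal muscle, liver, spleen and lung is not resolved by these libraries.

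Over all pairs, 19 of 45 were called for miR-140, beside 23.8% of all combinations of miRNA and pair. Antler was above 8 of the 9 other organs, from 1.87 over kidney (limma adjusted p = 0.00192) to 4.09 over testes (limma adjusted p = 6.88e-09), and adrenal was the exception. Adrenal was above heart, lung and testes. Heart and testes were each also below brain, kidney, liver and skeletal muscle, while heart and testes differed by 0.09 from each other. With no stage term in the fit the count of pairs was 11, and with 1 stage left out it was 10 to 13.

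Markers of other tissues were read in the antler libraries beside these levels. All 4 neural markers were at 0 in every antler library. The floor taken for a count of 0 was 3 reads, worth 4.15 to 14 RPM in antler, and is not an exact counting interval. Only miR-124a lay well above that floor in brain itself, at 2446 to 57640 RPM. In brain miR-128 was at most 14.1, miR-219-3p at most 8.14 and miR-488 at most 2.59 RPM, so their 0 in antler says little. Of the 7 muscle markers, 4 were at 0, among them miR-206 of skeletal muscle and miR-208a of heart. MiR-206 was at most 1.93 RPM in skeletal muscle and miR-208a at most 6.20 RPM in heart, so their 0 in antler says little. MiR-1 was at 10260, 8662, 5202 and 3717 RPM in juvenile, adolescence, adult and aged antler. In the organs other than antler, heart and skeletal muscle, miR-1 ran from 825 RPM in aged adrenal to 52057 RPM in aged spleen. The 6 blood and immune markers, of which 5 were found, summed to 1630 to 3843 RPM, and the 3 epithelial markers to at most 1.48 RPM. The liver and gut markers summed to 2707 to 3908 RPM, within the 1194 to 6280 RPM of adrenal. The testes markers were at 0 in antler. In testes itself they summed to 13.1, 104, 0 and 0 RPM in juvenile, adolescence, adult and aged deer. Their 0 in antler thus need not mean that such cells were absent. The 5 mesenchymal markers summed to 389203 to 494554 RPM, or 38.9 to 49.5% of antler miRNA reads, and to at most 27.3% in any other organ's library. MiR-3604 held 1129450 reads over all libraries, nearly the same reads as the 1129770 of miR-199a-3p. It is in the library totals but not in this sum, so these shares are too low, in antler and elsewhere. The mesenchymal sum in antler was 1.07 times as high in adult as in juvenile, while miR-140 in RPM was 0.127 times as high. The members of the sum differed. From juvenile to adult antler, miR-199a-3p went from 244470 to 287926 RPM and miR-199a-5p from 182055 to 182587. MiR-214 went from 15075 to 8220 RPM and miR-145 from 20356 to 15821, and miR-143 had 0 reads in both. The part of muscle, blood or mesenchyme in the antler level of miR-140 was not tested.

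Other miRNAs linked to cartilage and skeletal tissue were set beside miR-140 in antler. The list was written with earlier results of these data known, so its counts and p-values are not separate support. Of 17 such names, 16 were listed in the tables and 5 had enough reads to be tested. Of these, 3 were higher in antler than in the mean of the other organs and 1 was lower, with a median log2 difference of 3.58, against 18 higher, 27 lower and a median of -0.27 among all 124 miRNAs. The 2 arms of the miR-199a hairpin and miR-214 are known to be made from 1 transcript. MiR-199a-5p was higher by 4.66 (SE 0.30, limma adjusted p = 3.11e-15), miR-199a-3p by 3.99 (SE 0.32, limma adjusted p = 4.08e-13) and miR-214 by 3.58 (SE 0.50, limma adjusted p = 2.64e-07). These are miRNAs of mesenchyme, also present in many connective tissues, and are among the 5 mesenchymal markers above.

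MiR-29a, of a family known for targeting collagen mRNAs, was lower in antler by -3.15 (SE 0.53, limma adjusted p = 6.81e-06). It had 8 antler reads in all, with 0, 0, 3 and 5 in juvenile, adolescence, adult and aged deer. The size of this difference therefore depends on the 1 RPM added before the log. MiR-145, a miRNA of smooth muscle that also represses SOX9, differed by -0.66 (limma adjusted p = 0.0409) and was not called. MiR-455-3p, a cartilage miRNA that lies within a collagen gene, was not tested, since it had 134 reads in all. Liver held 64 of these and antler 1. The remaining 11 names on the list, miR-455-5p, miR-27b, miR-29b, miR-29c, miR-146a, miR-335, miR-381, miR-495, miR-204, miR-211 and miR-34a, had at most 115 reads each over all libraries.

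**Figure D2:**
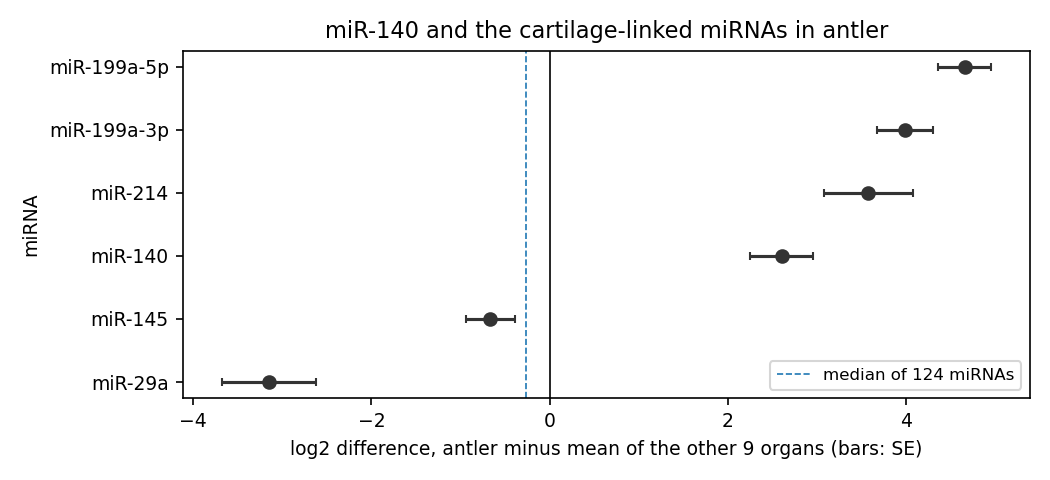
The plot gives the log2 difference between antler and the mean of the other 9 organs, with its SE, for miR-140 and the 5 tested cartilage-linked miRNAs, and the dashed line is the median of all 124 miRNAs. MiR-140, at 2.61, lies below miR-214, miR-199a-3p and miR-199a-5p and above miR-145 and miR-29a.

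The stages were compared organ by organ, as the pattern on which miR-140 was chosen. After TMM scaling the adult library was below the juvenile one in 10 of 10 organs, with a mean log2 difference of -1.44 ± 0.91 (SD, n = 10 organs), while the median over the 124 miRNAs was -0.21. This was so for 7 of the 124 miRNAs, or 5.65%: miR-134, miR-140, miR-151-3p, miR-215, miR-378d, miR-493 and miR-532. By its mean difference miR-140 was less extreme than miR-215, miR-493, miR-532 and miR-134. The counting interval of the ratio of adult to juvenile lay below 1 in 8 organs, all but heart and skeletal muscle.

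The size differed widely between organs. The ratio of adult to juvenile level after TMM was 0.109 in testes (0.00271 to 0.630), from 1 adult read against 60. It was 0.200 in both adrenal (0.150 to 0.263) and antler (0.139 to 0.284), which is 5.01 times as high in juvenile as in adult. In RPM the ratio of lung, 0.288, was below that of adrenal, 0.341.

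The ratio was 0.331 in kidney (0.207 to 0.516), 0.328 in liver (0.212 to 0.499) and 0.362 in lung (0.192 to 0.637). It was 0.521 in skeletal muscle (0.222 to 1.13), 0.621 in spleen (0.392 to 0.963) and 0.637 in brain (0.423 to 0.954). In heart it was 0.986 (0.431 to 2.31), from 12 and 15 reads, and its interval held 1. Against the other miRNAs of the same organ, the log2 difference of miR-140 was the 5th lowest of 124 in antler, the 13th in testes, the 17th in liver, the 22nd in lung, the 25th in spleen and the 28th in adrenal. It was the 32nd lowest in skeletal muscle, the 33rd in kidney, the 48th in brain and the 65th in heart. In adrenal, kidney and liver the median of all miRNAs was also lower in adult, at -0.56, -0.54 and -0.63.

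The count of 10 organs depended on the scale. In RPM the adult library was lower in 8 organs, as for 19.4% of the miRNAs, and with DESeq2 size factors in 9 organs, as for 8.06%. Brain and heart were the exceptions in RPM, where adult was 1.20 (0.796 to 1.79) and 2.12 (0.927 to 4.97) times juvenile, and heart alone was the exception with size factors. In the same 2 libraries of heart, the median of all 124 miRNAs was 0.79 higher on the log2 scale in adult RPM. By rank within each library, miR-140 stood lower in adult than in juvenile in 8 of 10 organs, as did 8.87% of the miRNAs.

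The antler, adrenal, kidney, liver, lung, skeletal muscle, spleen and testes were lower in adult under all 3 scalings. The counting interval of the RPM ratio was below 1 in 7 of these, and skeletal muscle was again the one where it was not, at 0.498 (0.212 to 1.08). In antler the RPM ratio was 0.127 (0.0884 to 0.181) and in adrenal 0.341 (0.256 to 0.449).

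**Figure D3:**
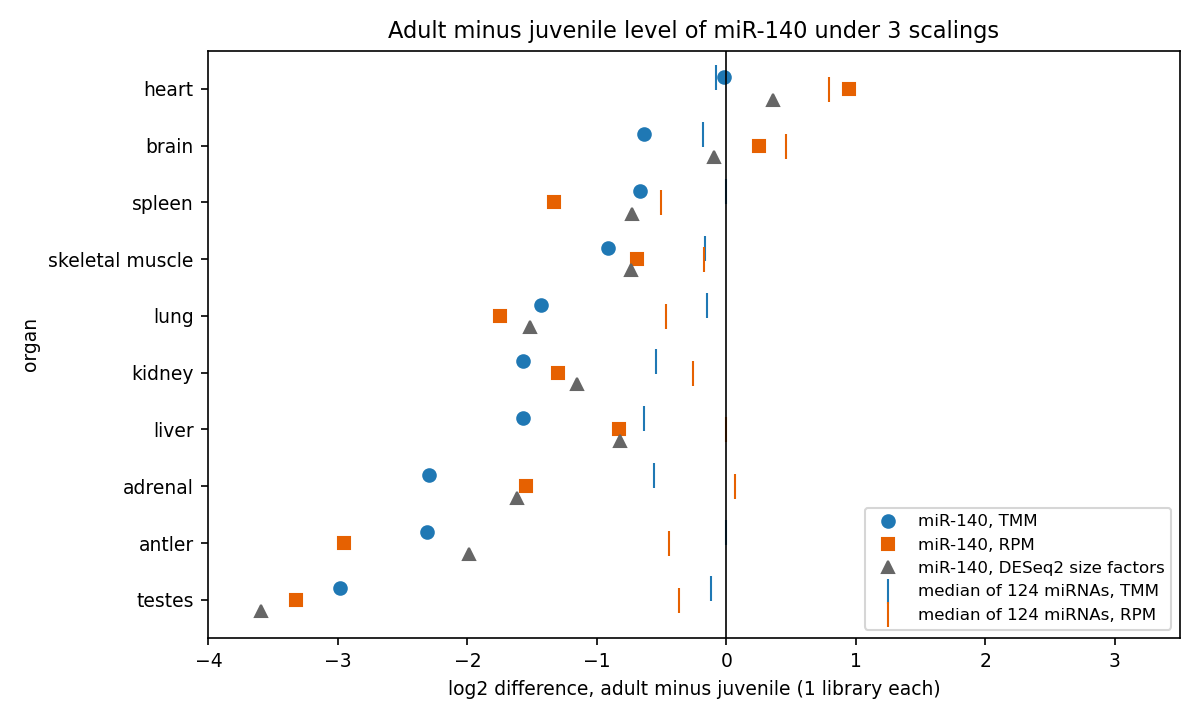
The plot gives, for each organ, the log2 difference between the adult and the juvenile library of miR-140 under TMM, RPM and DESeq2 size factors, with vertical ticks at the median of all 124 miRNAs. All points lie left of 0 except brain in RPM and heart in RPM and with size factors, and testes, antler and adrenal lie farthest left after TMM scaling.

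The steps between neighbouring stages differed from organ to organ. From juvenile to adolescence the TMM level was lower in 5 of 10 organs, with a mean of -0.40, and 54.8% of the miRNAs were lower in as many. Adrenal, kidney, liver, lung and testes were the lower ones, each with an interval below 1, while antler was 1.27 times as high in adolescence (0.988 to 1.63). From adolescence to adult the level was lower in 10 of 10 organs, with a mean of -1.04, as for 2.42% of the miRNAs. The interval lay below 1 in 5 of them, antler, adrenal, kidney, skeletal muscle and spleen, the same number of organs as in the step before. In testes, lung and liver the ratio was lower in the first step, at 0.182, 0.490 and 0.562, than in the second, at 0.597, 0.739 and 0.584. The antler had the lowest ratio of this step, 0.157 (0.111 to 0.221), followed by skeletal muscle at 0.348 (0.144 to 0.796) and adrenal at 0.395 (0.292 to 0.529).

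In RPM the step from juvenile to adolescence was lower in 8 organs, as for 15.3% of the miRNAs, and that from adolescence to adult in 7, as for 25%, so that the timing depended on the scale for the whole set, while the antler value was as marked in RPM, at 0.0987. From adult to aged the TMM level was lower in 2 of 10 organs, spleen and lung, with a mean of 0.21, and 87.1% of the miRNAs were lower in as many. The ratio of aged to adult was above 1 beyond counting error in adrenal, at 2.24 (1.66 to 3.04), and in antler, at 1.59 (1.11 to 2.33). In the other 8 organs the interval held 1. In RPM the adrenal ratio was 1.25 (0.929 to 1.70), with an interval that held 1, and the antler ratio was 1.81 (1.25 to 2.64). The aged library was below the juvenile one in 9 of 10 organs, with a mean of -1.23, as for 6.45% of the miRNAs, and heart was the exception, at 1.25 (0.525 to 2.99). In RPM the heart ratio was 3.09 (1.30 to 7.41), with its whole interval above 1.

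**Figure D4:**
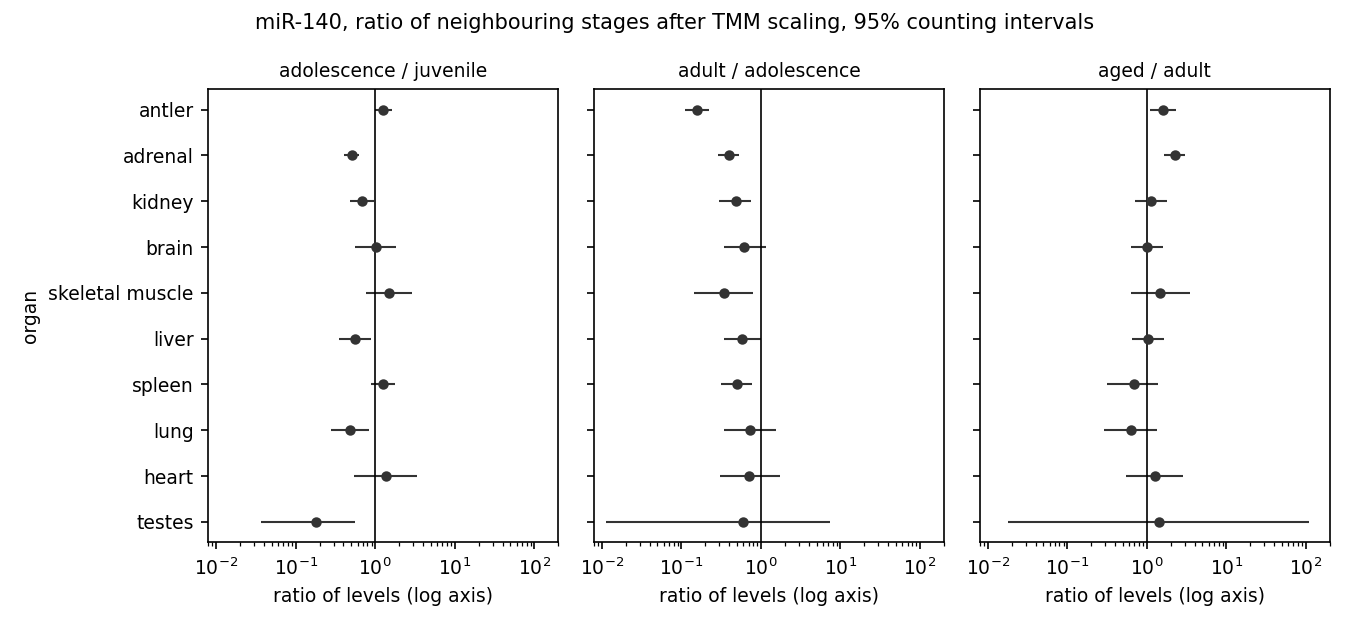
The panels plot, for each organ, the ratio of miR-140 levels between neighbouring stages after TMM scaling on a log axis, with 95% counting intervals and a line at 1. In the middle panel, adult over adolescence, all 10 organs lie below 1 and antler is the lowest at 0.157, while in the right panel adrenal and antler lie above 1 with their whole intervals.

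Over the organs together, the median RPM was 98.4 in juvenile, 61.1 in adolescence, 46.0 in adult and 33.3 in aged deer. After TMM the mean log2 level was 6.23 ± 1.37 (SD, n = 10 organs) in juvenile, 5.83 ± 1.55 in adolescence and 4.79 ± 1.02 in adult deer. The spread between organs within a stage was thus about as large as the difference between juvenile and adult means. Since each stage was 1 set of 3 deer, stage cannot be told apart from those deer or from the handling of their libraries.

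The miRNAs with the pattern most like that of miR-140 were read from the correlation of log2 levels after TMM over the 40 libraries. They were miR-671 (Pearson's r = 0.64), miR-431 (0.62), miR-409a (0.56), miR-2310 (0.55) and let-7i (0.54), while the median r over the other 123 miRNAs was 0.07. MiR-431 and miR-409a belong to the imprinted DLK1-DIO3 cluster and let-7i to the let-7 family. MiR-2310 had 205 reads in all, nearly the same reads being listed a second time as miR-1814c.

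After the mean of each organ was taken away, which leaves the pattern over stages, the highest r was that of miR-532 (0.60), followed by miR-378d (0.59), miR-134 (0.59), miR-409a (0.58) and miR-199c (0.56), with a median of 0.08. MiR-409a was the only one in both sets. MiR-532, miR-378d and miR-134 are also among the 7 miRNAs that were lower in all adult organs, from the same libraries. These correlations are descriptions over libraries that share deer, scaling and depth.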

How the data were processed

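Small RNA was sequenced from 40 libraries, 1 per organ and stage. Per the labels the kit was NEBNext, while the methods of the study name TruSeq. The submitters' processing notes list CASAVA, bcl2fastq 1.8.4 and Bowtie, and the methods name miRBase and miRDeep. The genome build is not given in the sources used here. The authors deposited 1 table per library with RPM values, headed tpm, that sum to 1000000. Dividing by what 1 read is worth gave a whole number for 100% of the 7982 values (tolerance 0.01 reads), which were turned back into reads. The number of reads limits the precision, and 1 read was worth 0.129 to 23.9 RPM. In 7 pairs of names nearly the same reads were listed under both, among them let-7b with miR-3596, miR-26a with miR-26c and miR-199a-3p with miR-3604. Both names count in the library totals, which lowers RPM values most where such miRNAs are abundant. With these names merged the antler difference of miR-140 was 2.73 (limma adjusted p = 6.25e-07). Adrenal was then not called (limma adjusted p = 0.0105).

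Numbered predicted names were left out, as were 30 known names listed in antler alone (688 reads), and 167 antler reads of miR-148c were counted as miR-2957, which left 306 known miRNAs. The antler tables thus used other names in part, and the effect of this on the antler values was not tested. Groups came from the sample labels. After TMM (edgeR 4.0.16), log2(RPM + 1) of the 124 miRNAs that reached 10 reads in 4 or more libraries was fitted with limma 3.58.1 in R 4.3.3, with organ and stage as terms. P-values were adjusted by Benjamini-Hochberg within each organ contrast, and over all miRNAs and 45 pairs together for pairs. Fold changes on this scale understate those of low miRNAs. Count tests by edgeR and DESeq2 1.42.0 on the recovered reads were alternatives. Ratios between stages carry exact counting intervals from Python 3.11.15 with scipy 1.17.1.

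The number in a sample title is its stage, and organs of 1 stage come from the same deer, so stage pairs the libraries by design. Deviations from the organ mean had a mean correlation of 0.14 between libraries of different organs with the same stage number (range -0.71 to 0.82), and -0.05 with another number. Taking the organ means away ties these means to each other, so the second is not separate support for the pairing. The miRNAs named by rule were miR-140, the cartilage-linked list, and the 5 most correlated miRNAs over libraries and within organs. The miRNA, the lists and the tests were chosen with earlier results of these data known. Mature sequences were not used here.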

Additional observations from a re-analysis of the deposited data

How the results depend on the processing

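The antler difference of miR-140 kept its direction and passed the test in 24 of 24 alternatives, with log2 values from 1.77 to 3.22 and limma, edgeR or DESeq2 adjusted p up to 0.00367. The paired analysis is the one reported: with no replicate block for stage, 11 organ pairs were called in place of 19, and the adrenal call was lost. The limma adjusted p of antler was then 2.77e-05 in place of 1.49e-07. Leaving out 1 stage gave 10 to 13 pairs and 3 to 4 organ contrasts. The count of called organ contrasts was 2 without heart and 2 without testes, in place of 4, since the organ itself and adrenal were lost. Stages 1 and 2 alone gave 2 contrasts and 8 pairs, and stages 3 and 4 alone gave 2 contrasts and 8 pairs, with fewer libraries in each. RPM gave 5 contrasts and 25 pairs, and the other scalings, tools, filter, pseudocount and merged names gave 3 to 4 contrasts and 14 to 19 pairs. The heart call held in 23 of 24 alternatives, the testes call in 20 and the adrenal call in 12. The mean adult minus juvenile difference ran from -0.99 (without testes, the organ with libraries of under 10 reads) to -1.53 (without brain). It was lower in 8 of 9 organs without kidney and in 8 of 9 without testes, where the refitted scaling put heart at 0.10. The cartilage-linked list gave 4 calls in antler in all alternatives but RPM on the total without miR-1, which gave 5. Depth limits testes most, where 1 read was worth up to 23.9 RPM.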
